A study of Rattus norvegicus with 26 samples.

Results

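The genes that make and sense prostanoids were followed in the thoracic aorta of hypertensive rats. The 9 genes are the cyclooxygenases Ptgs1 and Ptgs2, the terminal synthases Ptgis, Ptges and Tbxas1, and the receptors Tbxa2r, Ptgir, Ptger3 and Ptger4. They were found by matching the RefSeq accession of each array probe to the gene symbol, which gave 11 of the 30367 probes outside the controls and 9 of the 15168 genes with a symbol. Ptgs1 and Ptger3 have 2 probes each, and the brighter probe stands for the gene unless the other is named. All 11 probes passed the filter on low values.

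Each of the 26 arrays carries the RNA of 1 aorta from a male spontaneously hypertensive rat, a strain with inherited high blood pressure; no normotensive group is among the samples, and no ages are stated in the labels. The rats were dosed by mouth for 4 weeks and killed at day 28. Valsartan, which blocks angiotensin II at its type 1 receptor, was given at 21.6 mg per kg (6 arrays; the series text gives 8 rats). Songling Xuemaikang capsule (SXC), a herbal preparation, was given at 708.75 mg per kg (high dose, 6 arrays) or 236.25 mg per kg (low dose, 6 arrays), and the control rats received saline at 7.5 mL per kg (8 arrays). In bulk tissue, fewer cells of a type and less RNA per cell cannot be told apart.

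Cyclooxygenases convert arachidonic acid, released from membranes by phospholipases, into an unstable endoperoxide that terminal synthases turn into the separate prostanoids. In arteries, prostacyclin from the prostacyclin synthase Ptgis acts on its receptor Ptgir to relax smooth muscle and to restrain platelets, whereas thromboxane from Tbxas1 acts on Tbxa2r to contract smooth muscle and to activate platelets. Prostaglandin E2, made by Ptges and related synthases, works through several receptors, of which Ptger4 raises and Ptger3 mostly lowers cyclic AMP.

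A level here is the log2 intensity of a probe relative to the 75th percentile of its array. A level therefore compares samples for the same probe, and not one gene with another. The share of probes detected well above background was 32.4% to 56.5% on valsartan arrays, 28.7% to 79.2% on high-dose, 70.0% to 77.0% on low-dose and 67.3% to 76.2% on saline arrays. All saline arrays were scanned on 1 day, 82 days after the last treated array, so in every comparison with saline the scan and the treatment cannot be told apart. The 6 valsartan arrays and 4 high-dose arrays had their scans made with less detector gain (323 to 325 V) than all others (353 to 354 V). Valsartan and low-dose arrays shared no scan day, slide or gain, so scan and treatment cannot be told apart between them either. Only the high-dose group has arrays at both gains, 2 at the higher and 4 at the lower, which also differ in slide and scan day. For valsartan and high-dose SXC, fits with gain as a block rest on that split. Their high-dose change against saline is that of high-dose arrays 1 and 2. Saline arrays 3 and 7 stood apart from the other saline arrays, with the highest summed white fat markers (7.64 and 7.58, against 3.44 to 6.88 on the others) and the lowest smooth muscle markers (6.91 and 6.25, against 7.55 to 8.09). Saline arrays 1 and 5, 2 and 6, and 3 and 7 lay close together for several members, so 8 may overstate the number of independent saline samples, and p-values measure the spread between these arrays. The defining genes of smooth muscle and fibroblasts, Myh11 and Col1a1, were well above background on all 26 arrays.

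Prostacyclin synthase, the prostacyclin receptor and thromboxane synthase fell with all 3 treatments, and the thromboxane receptor rose with all 3. Ptger4 rose with high-dose SXC. No other member passed the limma test against saline (Benjamini-Hochberg adjusted p under 0.05 over all 23744 probes tested). Thus 1 member rose and 3 fell with valsartan, where 58.4% of all probes were called (33.2% higher and 25.2% lower). With high-dose SXC 2 rose and 3 fell, where 57.1% of probes were called (35.7% higher and 21.4% lower). With low-dose SXC 1 rose and 3 fell, where 39.6% were called (22.5% higher and 17.1% lower). These shares of members, 4, 5 and 4 of 9, lie near the shares of all probes. The median change of the members was 0.22 for valsartan, 0.24 for high-dose and -0.14 for low-dose SXC, against 0.19, 0.25 and 0.09 over all probes tested. The 3 comparisons use the same saline arrays, so their likeness is in part given by those arrays.

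**Figure D1:**
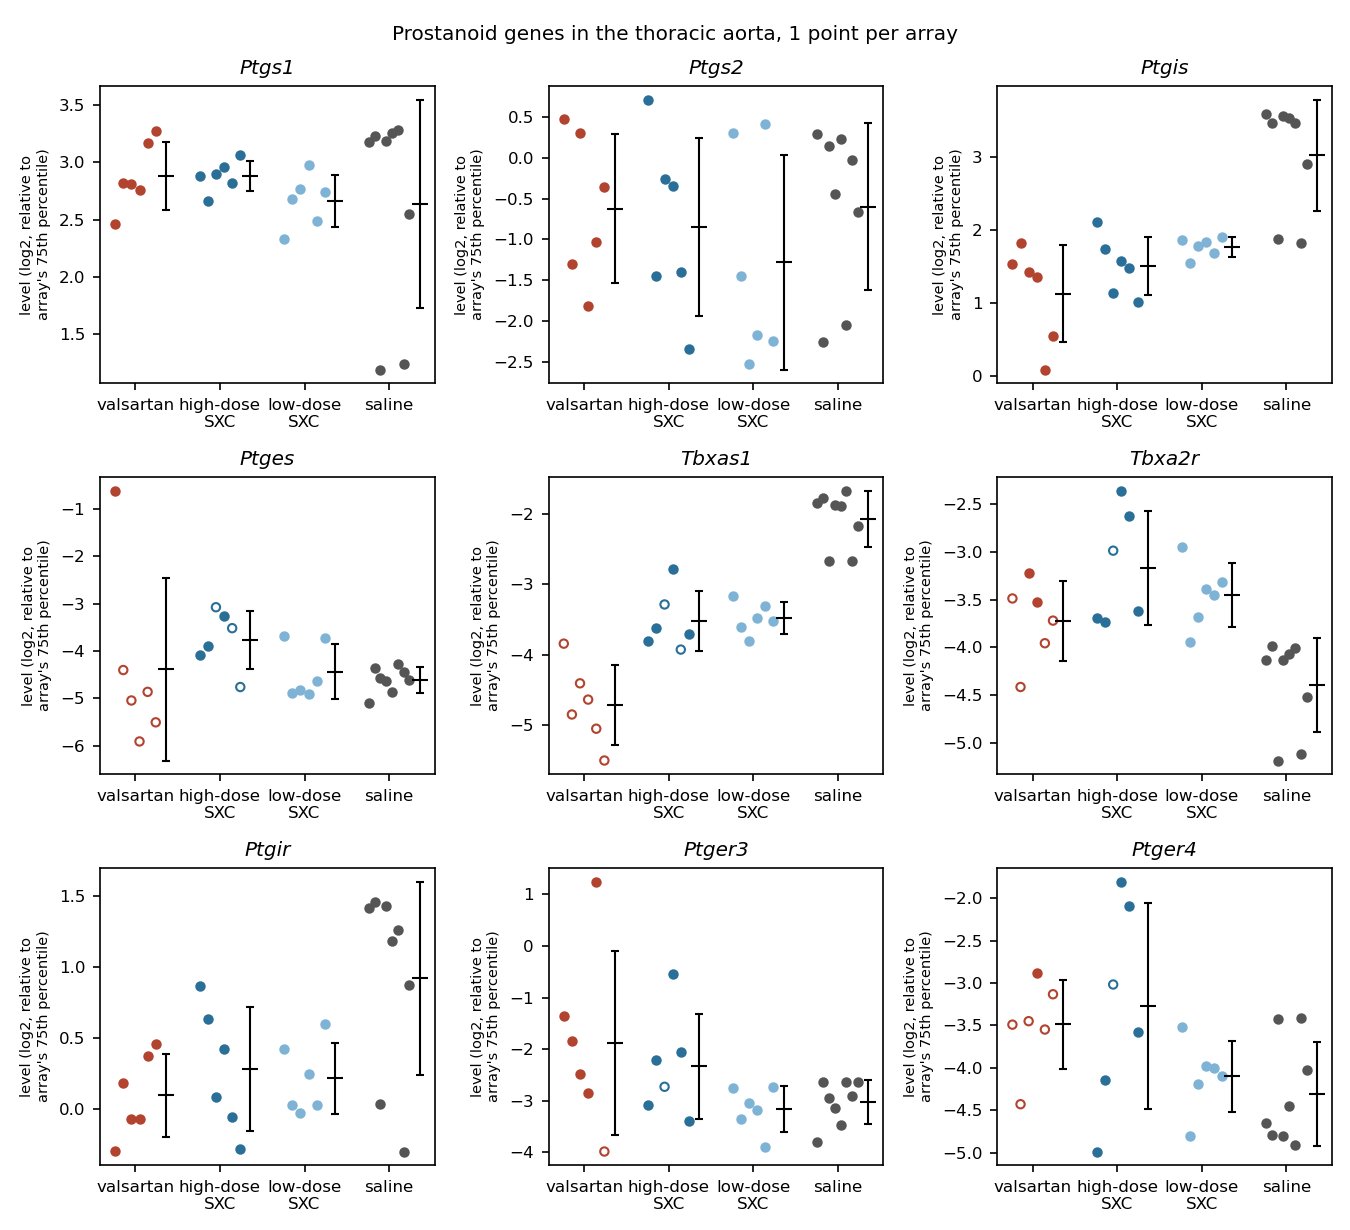
Levels of the 9 genes (log2, relative to the array's 75th percentile; scales differ between panels) on 6 valsartan, 6 high-dose SXC, 6 low-dose SXC and 8 saline arrays. Each point is an array, open where the probe was not well above background, and bars give the mean ± SD. Tbxas1 lies below every saline array in all 3 treated groups, while Ptgs1, Ptgis, Ptgir and Tbxa2r each have 2 low saline arrays, numbers 3 and 7.

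Ptgs1, the constitutive cyclooxygenase, did not pass in any of the 6 comparisons by its brighter probe. Its level lay between 2.46 and 3.28 (median 2.81) on valsartan arrays, between 2.66 and 3.07 (median 2.89) on high-dose arrays and between 2.33 and 2.97 (median 2.71) on low-dose arrays, against 1.19 to 3.28 (median 3.18) on saline arrays. The saline group held both the highest and the lowest values: arrays 3 and 7 lay at 1.19 and 1.24, and the other 6 between 2.55 and 3.28. The changes against saline were 0.24 ± 0.28 (SE; adjusted p = 0.468) for valsartan, 0.24 ± 0.28 (adjusted p = 0.472) for high-dose and 0.02 ± 0.28 (adjusted p = 0.955) for low-dose SXC. Without saline arrays 3 and 7, a choice made after seeing the data, the low-dose change was -0.45 and was called (adjusted p = 0.0134). The gene's other probe, with means of -2.23, -1.75 and -2.39 for valsartan, high-dose and low-dose SXC against -3.50 for saline, was called higher against saline for valsartan (1.27, adjusted p = 0.00346), high-dose (1.75, adjusted p = 0.000162) and low-dose SXC (1.11, adjusted p = 0.014). The other probe was also lowest on saline arrays 3 and 7 (-5.06 and -5.13, against -3.43 to -2.55 on the other 6 saline arrays). Each treated group overlapped saline for it. The 2 probes thus disagree on the calls against saline, and the direction for Ptgs1 is uncertain. The brighter probe is printed in 10 spots per array, which varied by an SD of at most 0.07 within an array, so the low values of saline arrays 3 and 7 are not those of single spots.

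Ptgs2, the inducible cyclooxygenase, varied more within groups than between them. Levels ran from -1.81 to 0.47 (median -0.70) with valsartan, from -2.33 to 0.71 (median -0.87) with high-dose and from -2.52 to 0.41 (median -1.81) with low-dose SXC, against -2.25 to 0.29 (median -0.24) with saline. All 4 groups overlap. Saline arrays 2 and 6 are the low ones of their group (-2.25 and -2.05), and low-dose arrays 1 and 5 the high ones (0.29 and 0.41). The means were -0.62 ± 0.91, -0.84 ± 1.08 and -1.28 ± 1.31 (SD, n = 6 each) for valsartan, high-dose and low-dose SXC, against -0.60 ± 1.01 (SD, n = 8) for saline. The largest change was that of low-dose SXC against saline, -0.68 ± 0.54 (SE; adjusted p = 0.34), and all 6 comparisons missed the threshold. The difference between Ptgs2 and Ptgs1 within an array changed by -0.27 with valsartan, by -0.49 with high-dose and by -0.70 with low-dose SXC relative to saline, with overlapping groups each time.

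Within groups Ptgs2 went together with genes known for rapid induction. Among 8437 genes compared, the 3 with the most similar deviations from the group means over the 26 arrays were Btg2, an antiproliferative early gene (Pearson r = 0.93), Ier2 (r = 0.88) and Fos, a subunit of the AP-1 transcription factor (r = 0.87). Over the 18 treated arrays alone r was 0.91, 0.83 and 0.86. These are descriptions, and the points share array, scan and dissection. Btg2 ran from 4.44 to 5.09 on valsartan, 4.30 to 6.29 on high-dose, 3.97 to 6.24 on low-dose and 4.12 to 5.78 on saline arrays. On saline arrays 2 and 6, where Ptgs2 was low, Btg2 was at 4.12 and 4.18. The labels do not state the hour of collection.

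**Figure D2:**
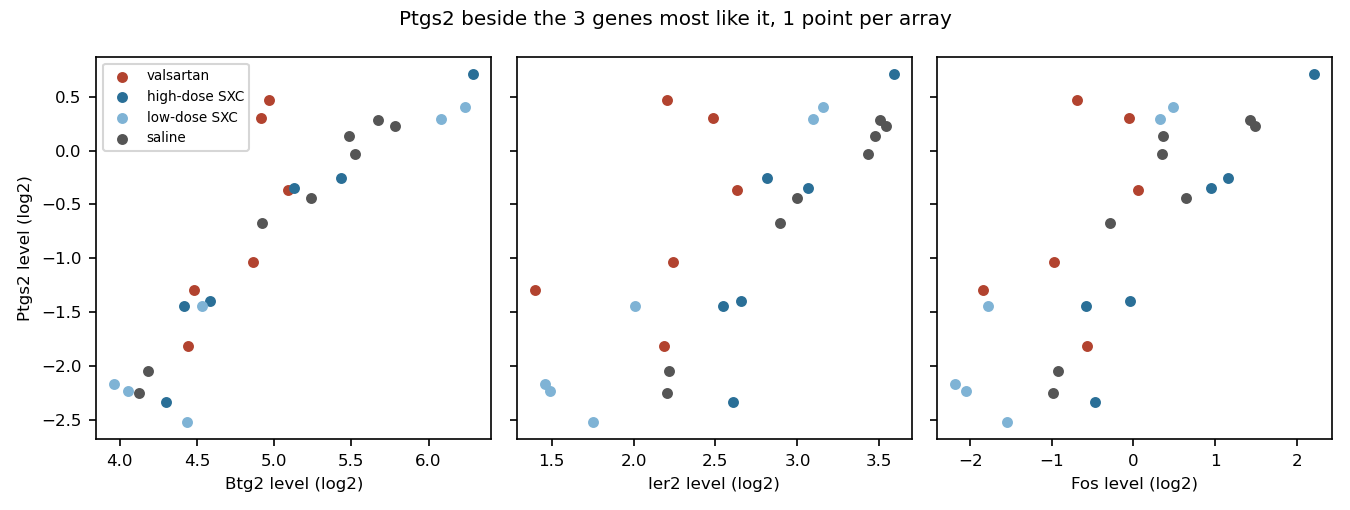
Level of Ptgs2 (vertical, log2) against the levels of Btg2, Ier2 and Fos (horizontal, log2), 1 point per array, coloured by group. High and low arrays occur in every group, with within-group correlations of 0.93, 0.88 and 0.87 over 26 arrays.

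The RefSeq promoter windows of Ptgs2 and of Btg2 and Ier2 are shown because these genes moved together. Each window (GRCr8) runs from 250 bases before to 50 bases after the annotated start, and a window was found for 8 of the 9 members. Both strands were searched for the cAMP response element TGACGTCA, the AP-1 site TGANTCA, the E-box CACGTG, the GC box GGGCGG, the CCAAT box CCAAT and the TATA box TATAAA. Capitals mark every match, on either strand.
Ptgs2, chr13:64713813-64714112, plus strand: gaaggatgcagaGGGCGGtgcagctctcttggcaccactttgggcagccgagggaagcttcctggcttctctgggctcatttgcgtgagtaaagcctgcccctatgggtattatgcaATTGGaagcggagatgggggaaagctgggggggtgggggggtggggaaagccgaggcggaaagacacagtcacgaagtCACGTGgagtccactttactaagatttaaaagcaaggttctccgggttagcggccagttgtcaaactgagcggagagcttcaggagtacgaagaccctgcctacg
Btg2, chr13:48087641-48087940, minus strand: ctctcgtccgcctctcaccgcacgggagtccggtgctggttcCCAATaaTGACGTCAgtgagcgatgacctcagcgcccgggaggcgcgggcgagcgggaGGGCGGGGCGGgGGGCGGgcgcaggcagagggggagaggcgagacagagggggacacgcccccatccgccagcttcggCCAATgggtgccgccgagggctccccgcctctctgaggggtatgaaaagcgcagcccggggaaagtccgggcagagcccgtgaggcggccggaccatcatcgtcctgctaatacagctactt
Ier2, chr19:40399123-40399422, plus strand: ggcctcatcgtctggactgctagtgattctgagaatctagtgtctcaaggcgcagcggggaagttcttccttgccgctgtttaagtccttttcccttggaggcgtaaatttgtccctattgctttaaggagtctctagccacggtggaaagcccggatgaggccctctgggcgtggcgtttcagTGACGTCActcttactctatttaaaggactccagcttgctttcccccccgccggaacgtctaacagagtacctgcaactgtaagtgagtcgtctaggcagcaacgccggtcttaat
Ptgs2 holds an E-box 55 bases before the start, a motif found in 6.42% of all 33469 windows, along with a GC box (33.1% of windows) and a CCAAT box on the minus strand (37.5%). Btg2 and Ier2 each hold the full cAMP response element before the start, which is found in 1.83% of windows. Its exact letters are not in this window of Ptgs2. Btg2 also holds 3 GC boxes, of which 2 overlap by a base, and 2 CCAAT boxes.

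Ptgis, prostacyclin synthase, fell in all 3 treated groups. Its level lay between 0.09 and 1.82 (median 1.39) on valsartan arrays, between 1.01 and 2.11 (median 1.53) on high-dose and between 1.55 and 1.91 (median 1.81) on low-dose arrays, against 1.82 to 3.58 (median 3.46) on saline arrays. The groups touch only through saline arrays 3 and 7 (1.88 and 1.82), since the other 6 saline arrays lay at 2.91 or higher. Means were 1.13 ± 0.66, 1.51 ± 0.40 and 1.77 ± 0.13 (SD, n = 6 each) for valsartan, high-dose and low-dose SXC, against 3.03 ± 0.76 (SD, n = 8) for saline. The log2 changes were -1.89 ± 0.29 (SE; adjusted p = 4.8e-06), -1.52 ± 0.29 (adjusted p = 8.42e-05) and -1.26 ± 0.29 (adjusted p = 0.00108). Without saline arrays 3 and 7 they were larger, at -2.29, -1.91 and -1.65. With detector gain as a block the valsartan change was -1.28 and not called (adjusted p = 0.117), while the high-dose change was -1.10 (adjusted p = 0.0498). Both values rest on high-dose arrays 1 and 2, the only high-dose arrays at the higher gain. With each of those 3 saline pairs averaged into a single sample and arrays 4 and 8 left out, all 3 changes were called (adjusted p = 0.000375, 0.00277 and 0.0176).

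Ptgir, the prostacyclin receptor, fell as well, by less. Levels ran from -0.30 to 0.46 (median 0.05) with valsartan, from -0.28 to 0.86 (median 0.25) with high-dose and from -0.03 to 0.60 (median 0.13) with low-dose SXC, against -0.30 to 1.46 (median 1.22) with saline. Saline arrays 3 and 7 (0.03 and -0.30) lay inside the treated range, and the other 6 saline arrays, from 0.87 to 1.46, lay above all treated arrays. The changes were -0.83 ± 0.25 (SE; adjusted p = 0.00574) for valsartan, -0.64 ± 0.25 (adjusted p = 0.0281) for high-dose and -0.71 ± 0.25 (adjusted p = 0.0238) for low-dose SXC. They were -1.18, -0.99 and -1.06 without saline arrays 3 and 7. The high-dose call was lost on leaving out saline array 1, 2, 4 or 6 or high-dose array 3, 5 or 6 (adjusted p = 0.0506 to 0.0795), and the low-dose call without low-dose array 3 (adjusted p = 0.0528). Among arrays at the higher gain, high-dose arrays 1 and 2 averaged 0.75 and saline arrays 0.92, a difference of -0.17, and with gain as a block the valsartan change was -0.12 (adjusted p = 0.906). With the saline pairs averaged, the high-dose and low-dose changes missed the threshold (adjusted p = 0.127 and 0.129).

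Ptgis and Ptgir varied with tissue markers within groups, as a description over 26 arrays. Ptgir followed the summed fibroblast (r = 0.90) and smooth muscle markers (r = 0.87), also over the 18 treated arrays (r = 0.78 and 0.65). Ptgis followed smooth muscle markers (r = 0.70) less closely over the treated arrays (r = 0.21). Both genes ran opposite to the summed endothelial markers (r = -0.73 for Ptgis and -0.58 for Ptgir). Over the treated arrays these were -0.62 and -0.37. They also ran opposite to white fat markers (r = -0.70 and -0.65, and -0.43 and -0.34 over the treated arrays). Against saline, 3 of 9 smooth muscle markers rose and 3 fell with valsartan, 3 rose and 3 fell with high-dose and 3 rose and 2 fell with low-dose SXC. Of 6 fibroblast markers 4, 3 and 2 fell. Summed smooth muscle markers lay between 7.14 and 7.59 with valsartan, 7.22 and 7.81 with high-dose and 7.58 and 8.00 with low-dose SXC, against 6.25 to 8.09 with saline. Of 9 endothelial markers 6 fell and 1 rose with valsartan, and 7 fell and 1 rose with either dose of SXC. Over all probes 25.2%, 21.4% and 17.1% were called lower with valsartan, high-dose and low-dose SXC. Under normexp the valsartan falls of Emcn, Nos3 and Tek were not called (adjusted p = 0.273, 0.607 and 0.423). The summed endothelial level lay between 1.82 and 3.13 with valsartan, 1.33 and 3.44 with high-dose and 1.91 and 2.91 with low-dose SXC, against 2.52 to 4.98 with saline. The part of these cells in the lower Ptgis and Ptgir levels was not tested.

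Tbxas1, thromboxane synthase, fell in every treated group without overlap with saline. Its level lay between -5.50 and -3.84 (median -4.74) on valsartan arrays, between -3.93 and -2.79 (median -3.66) on high-dose and between -3.81 and -3.17 (median -3.50) on low-dose arrays, against -2.67 to -1.67 (median -1.88) on saline arrays. The probe reached well above background on 0 of 6 valsartan, 4 of 6 high-dose, 6 of 6 low-dose and 8 of 8 saline arrays. With valsartan the mean was -4.71 ± 0.57 (SD, n = 6) against -2.07 ± 0.40 (SD, n = 8) in saline, at least 2.08-fold lower (adjusted p = 1.62e-09). That bound sets the saline mean against the lowest signal well above background on the valsartan arrays, or against the probe's own signal where higher. It is a bound in this scaling only, as is each such bound below. The adjusted p beside it belongs to the limma change without a bound. The change was -1.45 ± 0.24 (SE; adjusted p = 1.21e-05) with high-dose and -1.41 ± 0.24 (adjusted p = 3.35e-05) with low-dose SXC. The calls against saline held under each alternative that tested the probe (the filter of 20 arrays leaves it out), but its size depended on the processing: the valsartan, high-dose and low-dose changes were -0.67, -0.59 and -0.89 after normexp background correction and -4.12, -2.57 and -1.48 in the same fit to the authors' deposited log2 values. Over all probes, 30.8%, 29.1% and 31% did not overlap between valsartan, high-dose or low-dose SXC and saline. Among the members 1, 2 and 2 did not, namely Tbxas1 in each case and Tbxa2r with both doses of SXC.

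Tbxas1 is also a gene of macrophages and platelets. Of 11 macrophage markers 10 fell with valsartan, 9 with high-dose and 9 with low-dose SXC, and 0 rose. Over all probes 25.2%, 21.4% and 17.1% were called lower. Under normexp Adgre1 and Mrc1 were not called with valsartan (adjusted p = 0.266 and 0.687) or high-dose SXC (0.0533 and 0.0861). Summed macrophage markers lay between 1.25 and 1.72 with valsartan, 1.84 and 2.24 with high-dose and 2.07 and 2.59 with low-dose SXC, against 3.39 to 4.44 with saline. Ctss, the defining macrophage marker, was well above background on 1 of 6 valsartan and 5 of 6 high-dose arrays, and lay between -2.33 and -2.12 with low-dose SXC, against -0.06 to 1.59 with saline. Of 6 platelet markers 2 fell and 1, Gp5, rose in each comparison with saline. Under normexp Gp9, counted among the falls with valsartan, was called higher (0.53, adjusted p = 0.0173). Ppbp, counted among the falls with high-dose SXC, then changed by 0.02 (adjusted p = 0.957). Summed platelet markers lay between 0.27 and 0.79 with valsartan, 0.19 and 1.47 with high-dose and 0.06 and 0.79 with low-dose SXC, against 0.15 to 3.41 with saline, so the groups overlapped. The defining platelet gene Pf4 was between -3.07 and -0.74 on the treated arrays, against -0.64 and -0.50 on saline arrays 3 and 7 and 2.11 to 3.05 on the other saline arrays. All 5 red cell markers fell in each comparison, with a summed level of 2.29 to 4.23 with valsartan, 2.10 to 4.37 with high-dose and 3.24 to 5.06 with low-dose SXC, against 7.98 to 9.65 with saline. The part of blood and macrophage RNA in the Tbxas1 level was not tested.

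The Tbxas1 promoter window is shown as that of the member whose treated arrays all lay below saline.
Tbxas1, chr4:68631635-68631934, plus strand: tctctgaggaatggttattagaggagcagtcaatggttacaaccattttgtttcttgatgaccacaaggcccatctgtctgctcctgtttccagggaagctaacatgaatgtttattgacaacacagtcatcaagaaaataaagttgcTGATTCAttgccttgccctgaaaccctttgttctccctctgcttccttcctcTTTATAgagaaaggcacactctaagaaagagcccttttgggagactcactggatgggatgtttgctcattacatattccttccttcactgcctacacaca
It holds an AP-1 site before the start, as 7.33% of windows do, and TATAAA on the minus strand (14.2%). The windows of Ptgs1, Tbxa2r and Ptger4 hold none of the 6 motifs. Those of Ptges and Ptgir hold a GC box, and that of Ptger3 holds 3.

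Tbxa2r, the thromboxane receptor, rose in all 3 treated groups. Levels ran from -4.42 to -3.22 (median -3.62) with valsartan, from -3.73 to -2.36 (median -3.31) with high-dose and from -3.95 to -2.95 (median -3.42) with low-dose SXC, against -5.19 to -3.99 (median -4.13) with saline. Every SXC array lay above every saline array, while valsartan array 2 (-4.42) lay among the saline arrays. The probe was well above background on 2 of 6 valsartan, 5 of 6 high-dose, 6 of 6 low-dose and 8 of 8 saline arrays. The changes were 0.67 ± 0.27 (SE; adjusted p = 0.0326), 1.23 ± 0.27 (adjusted p = 0.000362) and 0.94 ± 0.27 (adjusted p = 0.00623) for valsartan, high-dose and low-dose SXC. The valsartan call was lost without saline array 3 or 7 or valsartan array 1, 3 or 4 (adjusted p = 0.0584 to 0.0821), and with detector gain as a block the value was -0.14 (adjusted p = 0.892). It was also lost after quantile normalisation (0.35, adjusted p = 0.213) and in the same fit to the authors' deposited log2 values (0.36, adjusted p = 0.253). With slide as a random block the valsartan change was 0.65 and not called (adjusted p = 0.127). At the higher gain alone, high-dose arrays 1 and 2 averaged -3.72 and saline arrays -4.40, a difference of 0.68, and low-dose arrays averaged -3.46. With the saline pairs averaged, the valsartan and low-dose changes missed the threshold (adjusted p = 0.129 and 0.0594).

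In the fit without a block, prostacyclin and thromboxane receptors thus moved in opposite directions. The difference between the Ptgir and Tbxa2r levels of an array has no meaning in its size. Its change was not separated from background handling, on which levels of faint probes such as Tbxa2r depend. The difference lay between 3.14 and 4.60 (mean 3.81 ± 0.63, SD) with valsartan, 2.56 and 4.56 (3.45 ± 0.83) with high-dose and 3.37 and 3.97 (3.67 ± 0.24) with low-dose SXC, against 4.82 to 5.56 (5.31 ± 0.24) with saline. It was smaller on every treated array than on every saline array. Here saline arrays 3 and 7 lay with the rest of saline, because both receptors were low on them. The change was -1.50, -1.87 and -1.65 for valsartan, high-dose and low-dose SXC. This pair was formed with the results known and is given without a test. The share of all gene pairs that separate the groups in this way was not computed. Tbxa2r was well above background on 2 of 6 valsartan arrays, so the valsartan value is the least certain. With detector gain as a block the changes of Ptgir and Tbxa2r were -0.12 and -0.14 with valsartan, and -0.17 and 0.68 with high-dose SXC. Under normexp they were -0.85 and 1.32 with valsartan, and -0.66 and 1.21 with high-dose SXC. For the synthases, Ptgis minus Tbxas1 averaged 5.03 ± 0.62 with high-dose and 5.25 ± 0.23 with low-dose SXC, against 5.10 ± 0.38 with saline, and these groups overlapped. No reading is made for valsartan, where Tbxas1 was well above background on 0 of 6 arrays.

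**Figure D3:**
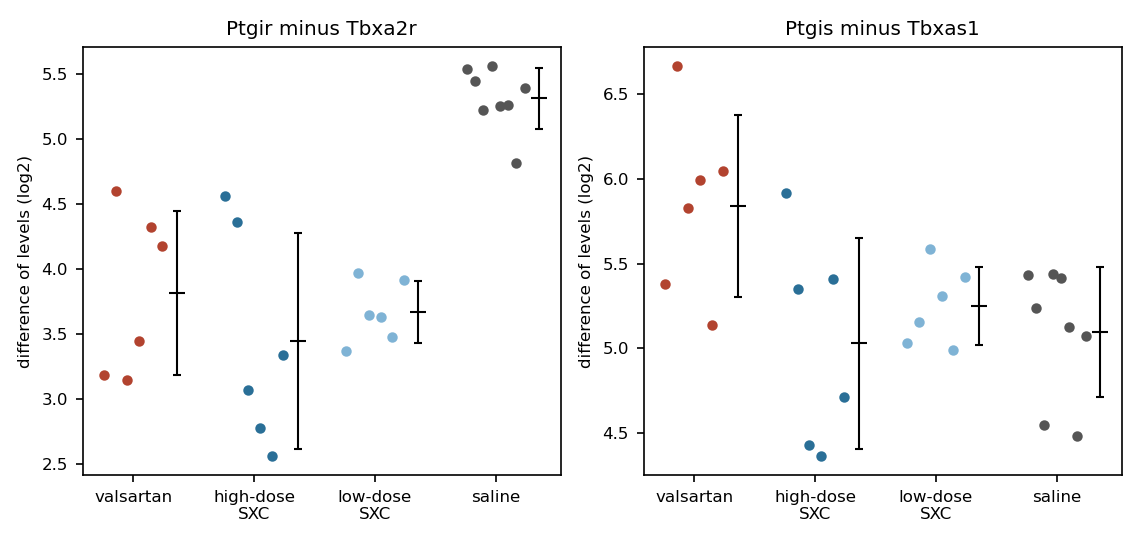
Within-array difference of log2 levels for the receptor pair Ptgir minus Tbxa2r (left) and the synthase pair Ptgis minus Tbxas1 (right), 1 point per array with mean ± SD. The receptor difference lies at 4.60 or lower on treated arrays and at 4.82 or higher on saline arrays, while the synthase difference overlaps between the SXC and saline groups; its valsartan points rest on Tbxas1 signals not well above background.

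The prostaglandin E2 genes were faint and mostly missed the threshold. Ptges, the inducible prostaglandin E synthase, was well above background on 1 of 6 valsartan, 3 of 6 high-dose, 6 of 6 low-dose and 8 of 8 saline arrays. Its level lay between -5.91 and -0.61 (median -4.96) with valsartan, -4.76 and -3.08 (median -3.71) with high-dose and -4.90 and -3.68 (median -4.72) with low-dose SXC, against -5.09 to -4.28 (median -4.59) with saline. Valsartan array 1, at -0.61, stood far from the rest of its group. No change against saline passed in the main fit: 0.22 ± 0.52 (SE; adjusted p = 0.735) for valsartan, 0.84 ± 0.52 (adjusted p = 0.17) for high-dose and 0.17 ± 0.52 (adjusted p = 0.827) for low-dose SXC. Under normexp the valsartan (1.45, adjusted p = 1.02e-05) and high-dose changes (0.95, adjusted p = 0.00137) were called. The high-dose change was also called with only the 2 groups compared (adjusted p = 0.013). Without valsartan array 1, valsartan against high-dose SXC was called (-1.38, adjusted p = 0.0192). That array was the only valsartan array with the probe well above background, so the value rests on undetected valsartan signals. Under normexp, with all arrays, this difference was 0.50 and not called (adjusted p = 0.464).

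Ptger4, the receptor that raises cyclic AMP, rose with high-dose SXC (1.04 ± 0.39, SE; adjusted p = 0.0264). Levels ran from -4.43 to -2.88 (median -3.47) with valsartan, from -4.99 to -1.80 (median -3.30) with high-dose and from -4.81 to -3.52 (median -4.05) with low-dose SXC, against -4.91 to -3.41 (median -4.55) with saline. The high-dose group was split, with arrays 4 and 5 at -1.80 and -2.09 and arrays 1 and 2, scanned at the higher gain, at -4.99 and -4.15. The call was lost without high-dose array 4 (0.74, adjusted p = 0.103) or 5 (0.80, adjusted p = 0.091), and at the higher gain alone the difference was -0.26. With the saline pairs averaged it was 1.00 and not called (adjusted p = 0.146). The call was also lost after quantile normalisation (0.46, adjusted p = 0.308) and in the same fit to the authors' deposited log2 values (0.47, adjusted p = 0.348). It was lost with slide as a random block (adjusted p = 0.0722) and with only the 2 groups compared (adjusted p = 0.0657). Under normexp it held (1.14, adjusted p = 0.000401). The valsartan change was 0.82 ± 0.39 (adjusted p = 0.0745), with the probe well above background on 1 of 6 arrays, and was called without valsartan array 2 or saline array 3 or 7 (adjusted p = 0.0364 to 0.0458). Of 13 alternatives 4 called it, among them normexp (1.33, adjusted p = 5.85e-05), only the 2 groups compared (adjusted p = 0.0346) and omission of saline arrays 3 and 7 (adjusted p = 0.021). In 8 it stayed uncalled, and with gain as a block it changed sign (-1.12, adjusted p = 0.23). The low-dose change was 0.21 ± 0.39 (adjusted p = 0.71). Saline arrays 3 and 7 (-3.43 and -3.41) were the highest of saline for this gene, the reverse of Ptgs1, Ptgis, Ptgir, Tbxas1 and Tbxa2r.

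Ptger3, the receptor that mostly lowers cyclic AMP, was not called in any of the 6 comparisons in the main fit with all arrays. Under normexp it was called higher against saline for valsartan (1.38, adjusted p = 0.00115) and high-dose SXC (0.89, adjusted p = 0.0282). Valsartan against low-dose SXC was then also called (1.30, adjusted p = 0.00515). Levels lay between -3.98 and 1.25 (median -2.17) with valsartan, -3.40 and -0.55 (median -2.47) with high-dose and -3.90 and -2.73 (median -3.12) with low-dose SXC, against -3.81 to -2.63 (median -2.94) with saline. Valsartan array 5 (1.25) and high-dose array 4 (-0.55) were the highest. The changes were 1.14 ± 0.52 (SE; adjusted p = 0.0607), 0.69 ± 0.52 (adjusted p = 0.262) and -0.14 ± 0.52 (adjusted p = 0.862) for valsartan, high-dose and low-dose SXC. The valsartan change was called without valsartan array 4 (1.34, adjusted p = 0.0382) or 6 (1.57, adjusted p = 0.00918), as was valsartan against low-dose SXC without array 6 (1.70, adjusted p = 0.022). The gene's fainter probe gave -0.14, -0.93 and -1.07, none of them called, so the 2 probes differ in sign for valsartan and high-dose SXC.

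**Figure D4:**
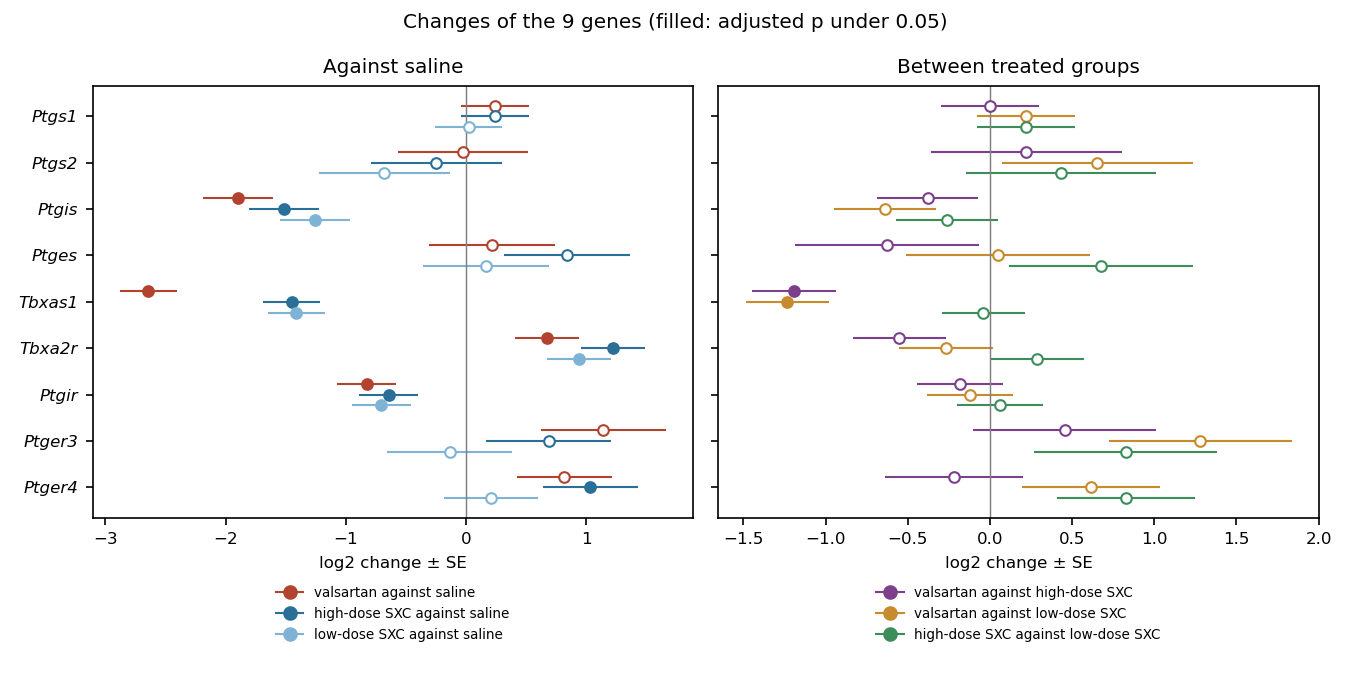
Log2 change ± SE of each gene against saline (left) and between treated groups (right), filled where the adjusted p was under 0.05. Ptgis, Tbxas1 and Ptgir lie below 0 and Tbxa2r above 0 for all 3 treatments, and Tbxas1 alone is filled between treated groups; its valsartan values rest on a probe not well above background on those arrays.

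Between the treated groups 1 member was called. Tbxas1 was lower with valsartan than with high-dose SXC (means -4.71 and -3.52; adjusted p = 0.0195), where 1.37% of all probes were called, and than with low-dose SXC (-4.71 and -3.48; adjusted p = 0.00122), where 25.2% were called. In the comparison with low-dose SXC, scan and treatment cannot be told apart. Since the probe was not well above background with valsartan, no fold is given. The high-dose call was lost without high-dose array 4 or valsartan array 5 or 6 (adjusted p = 0.0537 to 0.0612), and after normexp background correction the differences were -0.08 and 0.22, neither called. Of 12 alternatives 8 lost the high-dose call, among them quantile normalisation (adjusted p = 0.0555), the authors' values (0.0626), slide as a random block (0.248) and only the 2 groups compared (0.307). With gain as a block the low-dose difference was -1.52 and not called (adjusted p = 0.545). Valsartan and low-dose arrays did not overlap for Tbxas1, as for 14.8% of probes. High-dose against low-dose SXC gave 0 called members, where 22.2% of probes were called; 1 member, Ptger4, was called without high-dose array 1 (1.17, adjusted p = 0.0232). In that comparison the Ptgis difference was -0.26 ± 0.31 (SE; adjusted p = 0.583) and that of Tbxa2r 0.29 ± 0.29 (adjusted p = 0.504), while Tbxas1 (-0.04 ± 0.25), Ptgir (0.06 ± 0.26), Ptges (0.68 ± 0.56), Ptger3 (0.82 ± 0.56) and Ptger4 (0.83 ± 0.42) also missed. On the scan day that held both doses, 2 high-dose and 2 low-dose arrays averaged 1.92 and 1.88 for Ptgis and -3.71 and -3.34 for Tbxas1. On the scan day shared by all 6 valsartan and 2 high-dose arrays, Ptgis averaged 1.13 and 1.08, Tbxas1 -4.71 and -3.50 and Tbxa2r -3.72 and -3.31.

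Of 31 further genes of the pathway 30 were on the array and 25 were tested. With valsartan 5 rose and 8 fell, where 58.4% of all probes were called. With high-dose SXC 5 rose and 7 fell, where 57.1% were called, and with low-dose SXC 5 rose and 11 fell, where 39.6% were called. Their median change was 0.01, -0.12 and -0.39, against 0.19, 0.25 and 0.09 over all probes. Many of these probes were faint, and where normexp, quantile normalisation or the authors' deposited values ended a call of a gene named here, that is given beside it. Among the phospholipases that release arachidonic acid, the secreted Pla2g2a fell with valsartan (-4.37), high-dose (-4.07) and low-dose SXC (-3.94), with no array of any treated group above -3.33 against -2.30 or higher in saline. Its probe was well above background on 1 of 6 valsartan, 3 of 6 high-dose and 6 of 6 low-dose arrays, and under normexp the changes were -2.10, -2.45 and -2.84, all called. Pla2g10 was called higher in all 3, but was detected well above background on 0 valsartan and 0 saline arrays. It was at least 5.56-fold higher with high-dose (means -3.99 and -8.52; adjusted p = 8.27e-08) and at least 1.18-fold higher with low-dose SXC (means -6.23 and -8.52; adjusted p = 0.000972), and well above background on 4 of 6 arrays of each dose. The probe passed the filter on low values only through these SXC arrays, so its tests against saline do not stand apart from that choice. The low-dose call was lost in the same fit to the authors' deposited log2 values (0.87, adjusted p = 0.107).

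The prostaglandin D2 receptor Ptgdr2 had the largest rise of the list against saline. Known from leukocytes, it lay between -0.93 and 1.08 with valsartan, -0.78 and 2.08 with high-dose and -1.30 and 0.98 with low-dose SXC, against -7.06 to -2.12 with saline. It rose by 4.23 ± 0.59, 4.98 ± 0.59 and 4.19 ± 0.59 (SE; adjusted p = 1.39e-06, 1.3e-07 and 3.47e-06), also under normexp, quantile normalisation and the authors' values (3.24 or more). Ptgds, a prostaglandin D synthase, rose by 0.95, 1.57 and 1.34. Its valsartan call was lost after quantile normalisation (0.63, adjusted p = 0.105) and in the authors' values (0.67, adjusted p = 0.118).

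On the clearance side the transporter Abcc4 and the reductase Ptgr1 fell with all 3 treatments. Abcc4 changed by -2.80 ± 0.51 (SE) with valsartan, where it was well above background on 2 of 6 arrays, and by -1.20, -1.06 and -1.06 with valsartan, high-dose and low-dose SXC under normexp. Its low-dose call was lost after quantile normalisation (adjusted p = 0.266) and in the same fit to the authors' deposited log2 values (adjusted p = 0.192). Ptgr1 fell by 2.06 ± 0.38 with high-dose SXC. In the leukotriene arm Alox5ap, the protein that presents arachidonic acid to 5-lipoxygenase, was at least 1.28-fold lower with valsartan (means -5.14 and -2.77; adjusted p = 1.83e-05) and fell with high-dose (-2.26 ± 0.40) and low-dose SXC (-1.96 ± 0.40). Under normexp the valsartan and high-dose changes were -0.17 (adjusted p = 0.515) and -0.44 (adjusted p = 0.0942), neither called. With low-dose SXC, Alox12 fell (-2.30 ± 0.72; well above background on 2 of 6 arrays) and Alox5, 5-lipoxygenase itself, was at least 1.90-fold lower (means -7.58 and -5.46; adjusted p = 0.0419; on 0 of 6). Alox12 was not called under normexp (-0.52, adjusted p = 0.282). Alox5 was not called under normexp (-0.02, adjusted p = 0.97), after quantile normalisation (adjusted p = 0.119) or in the same fit to the authors' deposited log2 values (adjusted p = 0.202). Alox5 and Alox5ap are leukocyte genes, and the part of the lower macrophage markers in their levels was not tested.

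Between treated groups 0 of the 25 were called for valsartan against high-dose SXC. For valsartan against low-dose SXC 2 rose, Alox5 and Hpgds, and 2 fell, Abcc4 (-1.52 ± 0.54) and Cbr1 (-0.43 ± 0.14), a carbonyl reductase. In this comparison scan and treatment cannot be told apart. Alox5 was well above background on 1 of 6 valsartan arrays, at 1.45 (median of the group -5.33), and on 0 low-dose arrays. Hpgds, a prostaglandin D synthase of blood cells, was so on 0 valsartan and 1 low-dose array, and neither is given a fold. After quantile normalisation and in the same fit to the authors' deposited log2 values the calls of Alox5 (adjusted p = 0.302 and 0.289), Hpgds (0.638 and 0.591) and Cbr1 (0.0879 and 0.0958) were lost, and under normexp that of Abcc4 (-0.14, adjusted p = 0.791). For high-dose against low-dose SXC Pla2g10 (2.24 ± 0.56) and Ltc4s, leukotriene C4 synthase (1.21 ± 0.27), rose, and Cbr1 (-0.50 ± 0.14) and Ptges3, a cytosolic prostaglandin E synthase (-0.37 ± 0.13), fell. After quantile normalisation and in the same fit to the authors' deposited log2 values all 4 calls were lost: adjusted p was 0.0552 and 0.0526 for Pla2g10 (changes 1.19 and 1.24), 0.134 and 0.135 for Ltc4s, 0.0544 and 0.0538 for Cbr1 and 0.283 and 0.282 for Ptges3.

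Other members had their own nearest neighbours in deviations from the group means over the 26 arrays, among the same 8437 genes. Ptgs1 was most like Arhgap1, Trdn and Fhl1 (r = 0.97 to 0.98), and Ptgis most like Bche, Tmod1 and Slmap (r = 0.94 each). Over treated arrays alone r was 0.83 to 0.89 for Ptgs1 and 0.87 to 0.95 for Ptgis. Tbxa2r was most like Slc44a2 (0.91), Chst12 (0.88) and Ubl7 (0.85), and Ptgir most like Or8s5 (0.92), Hspb6 (0.90) and Nrsn2 (0.89). For these, r over treated arrays alone was 0.84 to 0.91 for Tbxa2r and lower for Ptgir, at 0.73 to 0.80. Ptger3 was most like Irf9, Or51e1 and Tm6sf2 (0.84 to 0.85) and Ptger4 most like Ppdpf (0.85), Dnlz (0.84) and Pmpca (0.83). Here r over treated arrays was 0.84 to 0.87 for Ptger3 and 0.80 to 0.84 for Ptger4. Tbxas1 and Ptges were well above background on 18 arrays each and were not compared. Among members, the closest pair over all 26 arrays was Ptgs1 with Ptgir (r = 0.78), which was 0.21 over the 18 treated arrays, whereas Tbxa2r with Ptger4 was 0.36 over all and 0.87 over treated arrays.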

How the data were processed

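Per the labels, RNA was extracted from each aorta separately and hybridised to 1-colour Agilent rat arrays. The deposited scanner files hold intensity values per spot (processed signal, and median spot and local background signal), made by the authors with Feature Extraction 11.0.1.1 per the file headers, with background subtracted and trends removed within each array. The authors also deposited a table of log2 values whose normalisation no label or header names; it served as an alternative.

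Levels are log2 processed signal minus the array's 75th percentile, with outlier spots and controls left out and spots of a probe averaged. Of 30367 probes, 18005 matched 1 symbol by accession, 0 matched several and 12362 none. The 23744 probes well above background (at least 0.5 of spots) on at least 6 of 26 arrays were fitted together with limma 3.58.1 (R 4.3.3, intensity trend), over 4 groups and 6 comparisons, and p-values were adjusted by Benjamini-Hochberg within each comparison over all of them. The fit was tested on simulated data. How precise the values are is limited by the number of arrays. The brightest probe stands for a gene. Likeness is Pearson's r of deviations from the group means, for genes well above background on at least 20 arrays, and the 3 closest named genes are given. Of the pathway list, up to 3 rises and 3 falls per comparison were named. The members, lists and alternatives were chosen with earlier results of these data known. Replicate numbers in the labels did not pair the samples: over 36 same-numbered pairs the correlation of deviations was -0.37 to 0.28, and 6 exceeded 0.1. Figures were drawn with matplotlib 3.10.9.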

Additional observations from a re-analysis of the deposited data

Results flagged for a closer look

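Within-group outliers by Dixon's criterion were found in 3 of the 44 groups of values tested (11 probes in 4 groups), where chance alone gives about 1 in 20. The Ptges level of valsartan array 1 (-0.61) stood above the rest of its group. The fainter Ptger3 probe stood apart on the same valsartan array 1 (-1.19) and on high-dose array 3 (-3.12), where it was not well above background. Those arrays had 32.4% and 28.7% of probes well above background, the lowest shares of their groups. The part of array quality in these values was not tested.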

How the results depend on the processing

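Levels of faint probes depend on background handling, and batches are uneven between groups, which limits the valsartan and high-dose values most. Over 13 other settings, 26 omissions of 1 array and 6 settings chosen after seeing the data, Tbxas1 stayed called against saline wherever it was tested, and Ptgis did so except for valsartan with gain as a block. The cause of the other changes was not tested.

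The number of members called was 7 (valsartan against saline), 0 (valsartan against high-dose), 4 (valsartan against low-dose) and 2 (high-dose against low-dose) under normexp. With gain as a block it was 1 for valsartan and 2 for high-dose against saline, and 0 for valsartan against low-dose. For high-dose against saline it was 3 with slide as a random block, without saline arrays 4 and 8 or with saline as 3 averages, and for low-dose against saline 2 with 3 averages. For valsartan against high-dose it was 0 with quantile normalisation, the authors' values, a filter of 20 arrays, slide or scan day as a block, 2 groups only or the lower gain only; for valsartan against low-dose 0 with the 20-array filter or scan day; and for high-dose against low-dose 1 without high-dose arrays 1 and 2.

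Probes called for valsartan against high-dose were 17 (normexp), 728 (quantile), 189 (no filter), 215 (20 arrays), 4 (slide as a random block, 2 groups only, or lower gain only), 1423 (gain) and 1331 (without high-dose arrays 1 and 2), against 325. For valsartan against low-dose they were 14543, 13259, 3812, 1840 and 3 under normexp, no filter, 20 arrays, slide, and gain or scan day. For high-dose against low-dose they were 10770, 10252, 3315, 1617, 0, 8433, 0, 11 and 0 under normexp, no filter, 20 arrays, slide as a random block, gain, omission of high-dose arrays 1 and 2, scan day, slide as a fixed block and the higher gain only. With gain as a block they were 3256 for valsartan and 6505 for high-dose against saline, and with 3 averages 5708 for low-dose against saline.

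The share of calls that were higher was 56.8% for valsartan against saline (78.2% normexp, 38.1% quantile, 38.8% authors' values, 70.4% no filter), 62.5% for high-dose against saline (76.7%, 41.7%, 41.9%, 73.1%), 54.1% for valsartan against low-dose (82%, 28.3%, 29.5%, 75.9%) and 75.6% for high-dose against low-dose (81.4%, 44.9%, 44.2%, 84.8%). The median of all probes against saline was 0.70 and 0.55 under normexp and -0.30 and -0.23 under quantile normalisation for valsartan and high-dose SXC.

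The replicate block, whose numbers do not pair the samples, gave 12584, 12447, 8090, 108, 5416 and 4680 called probes in the 6 comparisons. Under it the Tbxa2r change for valsartan against saline (0.53) and Tbxas1 for valsartan against high-dose (-1.19, adjusted p = 0.0501; 0 members) were no longer called, and Ptgs1 (-0.0061, -0.0059 and -0.22 for valsartan, high-dose and low-dose) and Ptgs2 (0.057, valsartan) changed sign against saline.

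Signs also changed as follows, mostly for values not called. Against saline, for valsartan: Ptgs2 0.043 (normexp), 0.69 (gain) and 0.19 (without saline arrays 3 and 7), Ptges -0.20 (quantile), -0.24 (authors) and -0.12 (gain), Tbxa2r -0.14 and Ptger4 -1.12 (gain), Ptger3 -0.14 (other probe) and Ptgs1 -0.23 (without saline 3 and 7). For high-dose: Ptgs2 0.23 and Ptger4 -0.26 (gain), Ptger3 -0.93 (other probe) and Ptgs1 -0.23 (without saline 3 and 7). For low-dose: Ptgs1 -0.045 (normexp), -0.16 (quantile), -0.18 (authors) and -0.45 (without saline 3 and 7), and Ptger3 0.074 (normexp).

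For valsartan against high-dose: Ptges 0.50, Tbxa2r 0.12 and Ptger4 0.18 (normexp), Ptger4 0.014 (quantile) and 0.021 (authors), Ptgir 0.053 (gain, lower gain only, or without high-dose arrays 1 and 2), Ptgis 0.055 and Ptgir 0.19 (scan day) and Ptgs1 0.058 (percentile after averaging). For valsartan against low-dose: Tbxas1 0.22 and Tbxa2r 0.65 (normexp), Ptges -0.29 (quantile or gain), -0.33 (authors), -0.76 (scan day) and -0.039 (percentile after averaging), Ptgir 0.59 and Ptger4 -1.33 (gain), and Ptgis 0.093, Ptgir 0.43 and Ptger4 -0.95 (scan day). For high-dose against low-dose: Tbxas1 0.30 (normexp) and 0.054 (without high-dose 1 and 2), Tbxa2r -0.20 (quantile), -0.25 (authors), -0.26 (gain or higher gain only), -0.58 (scan day) and -0.39 (slide), Ptgir -0.0021 (quantile), -0.013 (authors), -0.17 (without high-dose 1 and 2) and -0.085 (percentile after averaging), Ptgis 0.15 (gain or higher gain only), 0.038 (scan day) and 0.017 (slide), Ptger4 -0.47 (gain, higher gain only or slide) and -0.76 (scan day), and Ptges -0.29 (scan day) and -0.26 (slide).

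Leaving out 1 array at a time gave 13062 to 13899, 12588 to 13816 and 8385 to 9275 probes and 3 to 5, 3 to 5 and 3 to 4 members against saline for valsartan, high-dose and low-dose. It gave 92 to 886 probes and 0 to 2 members for valsartan against high-dose, 4622 to 6229 and 1 to 2 for valsartan against low-dose, and 3357 to 7148 and 0 to 1 for high-dose against low-dose. Changes that crossed 0 ranged from -0.26 to 0.21 (Ptgs2) and -0.54 to 0.52 (Ptges) for valsartan against saline, -0.56 to 0.051 (Ptgs2, high-dose against saline), -0.18 to 0.12 (Ptgs1) and -0.25 to 0.013 (Ptger3) for low-dose against saline, -0.71 to 0.35 (Ptges, valsartan against low-dose), -0.19 to 0.040 (Tbxas1) and -0.055 to 0.17 (Ptgir) for high-dose against low-dose, and -0.079 to 0.085 (Ptgs1), -0.076 to 0.53 (Ptgs2), -0.17 to 0.88 (Ptger3) and -0.56 to 0.077 (Ptger4) for valsartan against high-dose.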
